A study of Drosophila melanogaster with 2 samples.

Results

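The mitochondrial ribosomal protein genes of Drosophila melanogaster were examined for binding of Dan in the whole embryo. They were taken as all protein-coding genes whose symbol starts with mRpL or mRpS, 73 of 13968 protein-coding genes on the chromosome arms, with 47 large subunit genes (mRpL) and 26 small subunit genes (mRpS). The group itself was chosen by name after peaks at mRpS10, mRpL23 and mRpL41 had been seen in these same lists, so the presence and strength of peaks at these genes are described and not tested. The data are chromatin immunoprecipitation sequencing (ChIP-seq) peak lists from a single group of 2 biological replicates: whole embryos aged 0 to 8 h of transgenic flies carrying dan joined to eGFP, precipitated with an antibody against GFP. There is no second genotype, stage or treatment. The transgene is present in both libraries, and all cell types of the embryo are pooled.

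The mitochondrial ribosome translates the few proteins encoded by mitochondrial DNA, all of them parts of the respiratory chain, here taken to include ATP synthase. Its RNA comes from the mitochondrial genome, while its proteins are encoded in the nucleus, made in the cytoplasm and imported. Dan, the product of distal antenna, is a nuclear protein with a pipsqueak-type DNA-binding domain, known from antenna and eye development and from neuroblasts.

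A Dan peak past the authors' threshold in at least 1 list lay within 1000 bp of the start of 7 mitochondrial ribosomal protein genes: mRpS10 and mRpS23 of the small subunit, and mRpL20, mRpL23, mRpL24, mRpL37 and mRpL41 of the large subunit. A distance runs from the summit of a peak, its position of highest signal, to the nearest annotated transcription start site (TSS) of the gene. The bases around the summit are shown for 5 of these peaks so that their runs of A and T can be read beside the values. Each line gives the plus strand of dm6, 5′ to 3′, up to 100 bases either side of the summit and without any annotated exon. Capitals mark runs of at least 10 bases made only of A and T.
mRpS10, chr3R:15229438-15229638: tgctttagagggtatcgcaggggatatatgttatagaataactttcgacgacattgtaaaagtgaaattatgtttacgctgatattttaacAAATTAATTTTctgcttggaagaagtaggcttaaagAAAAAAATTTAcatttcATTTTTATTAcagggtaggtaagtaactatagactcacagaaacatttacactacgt
mRpS23, chr2L:13835366-13835563: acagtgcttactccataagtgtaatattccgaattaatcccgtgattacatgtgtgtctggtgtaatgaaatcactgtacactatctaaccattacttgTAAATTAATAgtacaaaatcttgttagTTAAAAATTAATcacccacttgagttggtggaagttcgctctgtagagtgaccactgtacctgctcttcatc
mRpL23, chr3L:2373502-2373596: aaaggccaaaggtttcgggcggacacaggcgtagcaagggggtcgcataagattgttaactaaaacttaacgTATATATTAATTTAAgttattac
mRpL20, chr3L:13018053-13018253: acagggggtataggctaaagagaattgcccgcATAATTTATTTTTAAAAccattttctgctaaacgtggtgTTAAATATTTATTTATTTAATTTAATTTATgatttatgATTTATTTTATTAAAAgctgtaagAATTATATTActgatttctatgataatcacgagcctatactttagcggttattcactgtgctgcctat
mRpL24, chr2L:4945377-4945577: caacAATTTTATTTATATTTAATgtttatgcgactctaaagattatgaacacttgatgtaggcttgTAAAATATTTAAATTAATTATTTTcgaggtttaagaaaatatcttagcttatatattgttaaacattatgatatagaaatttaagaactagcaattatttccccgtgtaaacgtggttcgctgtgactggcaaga

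Each of the 5 stretches holds at least 1 such run. The mRpL20 stretch has 73 of its 201 bases in 4 runs, the longest of them 30 bases. The mRpL24 stretch has 43 of 201 bases in 2 runs, mRpS10 has 32 of 201 in 3, and mRpS23 has 22 of 198 in 2. The mRpL23 stretch is the shortest, 95 bases, because exons of mRpL23 lie on both sides of it, and has 15 bases in 1 run.

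The 7 genes encode proteins of both evolutionary kinds. mRpS10, mRpL20, mRpL23 and mRpL24 are counterparts of bacterial ribosomal proteins, and the bacterial counterpart of mRpL23 sits at the exit of the peptide tunnel. mRpS23, mRpL37 and mRpL41 have no bacterial counterpart and belong to the proteins gained by the mitochondrial ribosome. The genes that share these promoters have other roles. Art3 encodes a protein arginine methyltransferase and CenG1A a GTPase-activating protein for Arf GTPases. Icmt encodes the methyltransferase for prenylated cysteines, and betaggt-I encodes the beta subunit of geranylgeranyl transferase type I. CG9004 and CG8079 are known here by symbol alone.

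The strongest 2 member peaks were those at mRpS10 and mRpS23, the only 2 of 26 small subunit genes with a peak past a threshold. The peak at mRpS10, chr3R:15229402-15229668, had a signal of 717 in the conservative list, made from both replicates. Signal is the authors' own value for a region and its scale is not stated, so replicates are compared here by rank. mRpS10 had 447 in replicate 1 and 274 in replicate 2, where it ranked 10th of 109692 and 16th of 111665 regions. Its summit lay between genes, 127 bp from mRpS10 and 130 bp from Art3, and the replicates placed it within 2 bp of each other.

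The peak at mRpS23, chr2L:13835322-13835600, had a signal of 625 in the conservative list. It had 376 in replicate 1 and 249 in replicate 2, ranks 15 and 18. This summit lay 394 bp from mRpS23 but 98 bp from CenG1A, so by the nearest start it belongs to CenG1A. The replicates differed by 19 bp in its place.

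Among the large subunit genes, mRpL23 had a peak of 462 at chr3L:2373477-2373707, with 274 in replicate 1 and 190 in replicate 2, ranks 27 and 39. mRpL23 has 3 annotated starts. The summit lay 88 bp inside the gene from the middle one, in an intron, and 138 bp from the start of CG9004. The replicates differed by 7 bp. Ranks in the first 40 in both replicates were thus held by mRpS10, mRpS23 and mRpL23.

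mRpL41 had a peak of 416 at chr2R:15217660-15217872, with 260 in replicate 1 and 156 in replicate 2, ranks 31 and 64. Its summit lay 149 bp upstream of mRpL41 and 613 bp from CG8079, with the start of the noncoding lncRNA:CR44463 between the summit and CG8079, 429 bp away. Of the 7 loci this had the longest distance between the facing starts, 762 bp.

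mRpL20 had a weaker peak of 163 at chr3L:13017978-13018327, 286 bp from mRpL20 and 113 bp from Icmt. It was the member peak whose signal in replicate 1, 79.6, was below that in replicate 2, 82.8, and it ranked 439 and 248. The replicates placed the summit 45 bp apart, the widest gap of the 7.

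mRpL24 had the weakest conservative peak, 81.0 at chr2L:4945302-4945651, between mRpL24 at 116 bp and betaggt-I at 102 bp. It had 52.4 in replicate 1 and 35.6 in replicate 2, ranks 894 and 1976, and only replicate 1 listed it past the threshold. mRpL37 had no conservative peak. The summit of its region lay 91 bp from mRpL37, and the region had a signal of 88.3 in the other list made from both replicates. It had 76.7 in replicate 1, at the 99.6th percentile of ranked regions, and 15.9 in replicate 2, at the 63.2nd percentile, and it was past the threshold in replicate 1 but not in replicate 2.

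**Figure D1:**
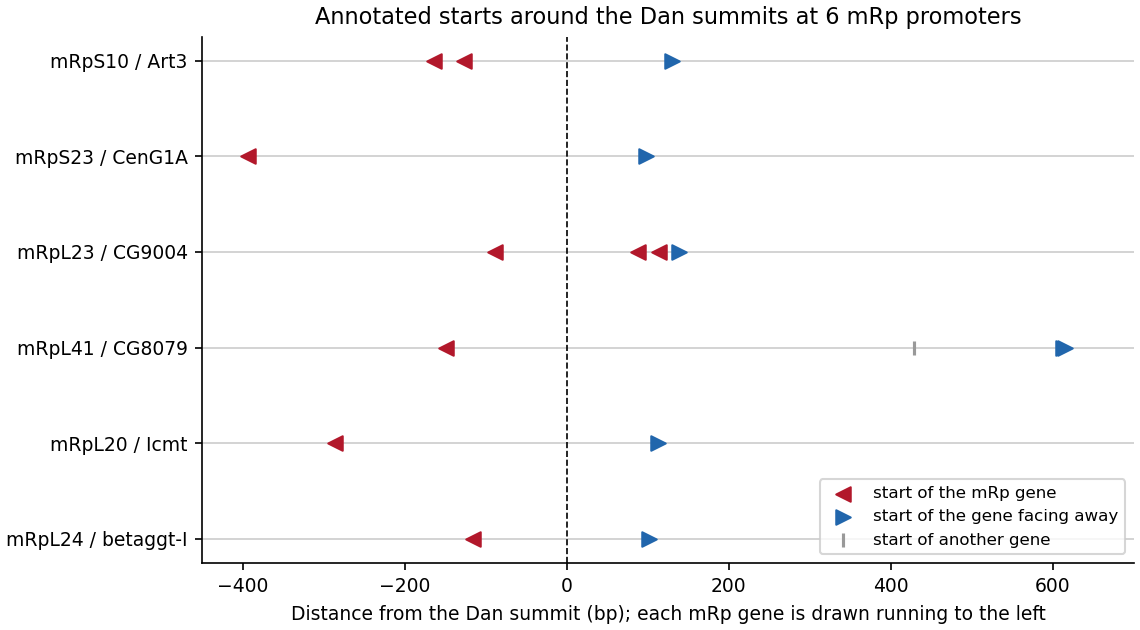
Positions of annotated starts relative to the Dan summit at 6 of the mitochondrial ribosomal protein (mRp) promoters, those with a conservative peak, strongest at the top. The horizontal axis is distance in bp, red arrowheads are starts of the mRp gene, blue ones starts of the gene facing away and the grey tick another gene. Every summit lies between a red and a blue start, at mRpL23 only by its innermost start, and 88 to 394 bp from the nearest mRp start and 98 to 613 bp from the nearest start of the other gene.

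All 7 summits lay between the start of the member and the start of a protein-coding gene that faces away from it, at most 1000 bp apart. At mRpL23 this holds only for the innermost of its 3 starts, 89 bp from the summit, since the summit lay downstream of the other 2, and the most upstream start is 24 bp from that of CG9004. Of the 6 conservative member peaks all 6 did (95% exact binomial interval 54.1 to 100%), against 184 of the 497 conservative peaks within 1000 bp of any protein-coding start, or 37.0% (32.8 to 41.4%). Such intervals cover counting error only. Facing starts are also common in the gene family itself. A divergent start within 1000 bp was annotated for 58 of 73 members, or 79.5% (68.4 to 88.0%), and for 5052 of 13968 protein-coding genes, or 36.2% (35.4 to 37.0%). The median distance between the starts was 283 bp in members and 298 bp over all such genes.

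The share of members with a peak was close to that of other genes with facing starts. In the conservative list 6 of 73 members had a peak, or 8.22% (3.08 to 17.0%), beside 5.06% of all protein-coding genes. Among genes with a divergent start, 6 of 58 members had one, or 10.3% (3.89 to 21.2%), beside 9.11% of all such genes. Of the 15 members without a divergent start 0 had one, which allows a share of up to 20% by a limit of 3 counts and has an exact 95% upper bound of 21.8%, beside 2.77% of all genes without one. A peak between facing starts is counted for both genes, which by itself raises the share among divergent genes.

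The other lists gave like counts. Past the threshold in the other list of both replicates were 7 of 73 members, or 9.59%, beside 5.68% of all genes. Replicate 1's own list held 7, or 9.59%, beside 4.95%, and replicate 2's held 5, or 6.85%, beside 3.1%. Both subunits had like shares in the conservative list, 4 of 47 large subunit genes (8.51%, interval 2.37 to 20.4%) and 2 of 26 small subunit genes (7.69%, 0.946 to 25.1%). By arm, the members with a conservative peak were 2 of 12 on 2L and 1 of 12 on 2R. They were 2 of 17 on 3L, 1 of 21 on 3R and 0 of 11 on X. The count on X allows a share of up to 27.3% by the limit of counts used above (exact upper bound 28.5%). The share of all protein-coding genes on each arm is not given here, so no arm is called poor or rich in member peaks.

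Of the 6 conservative member peaks, 4 were among the strongest at promoters. Among the 497 conservative peaks near a protein-coding start, the member peaks ranked 9 (mRpS10), 12 (mRpS23), 20 (mRpL23), 25 (mRpL41), 164 (mRpL20) and 409 (mRpL24). Their median signal was 439 with a range of 81.0 to 717, against a median of 121 over all 497. In the lists of single replicates the median at members was 260 for replicate 1 (7 peaks) and 190 for replicate 2 (5 peaks), and each of these peaks had a lower signal there than in the list of both. The 4 strongest were 213 to 279 bp wide, while mRpL20 and mRpL24 had the largest width in the list, 350 bp, as did 77.1% of the 497. In all 976 conservative peaks of that width, those at mRpL20 and mRpL24 included, the summit is given at the centre of the region.

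**Figure D2:**
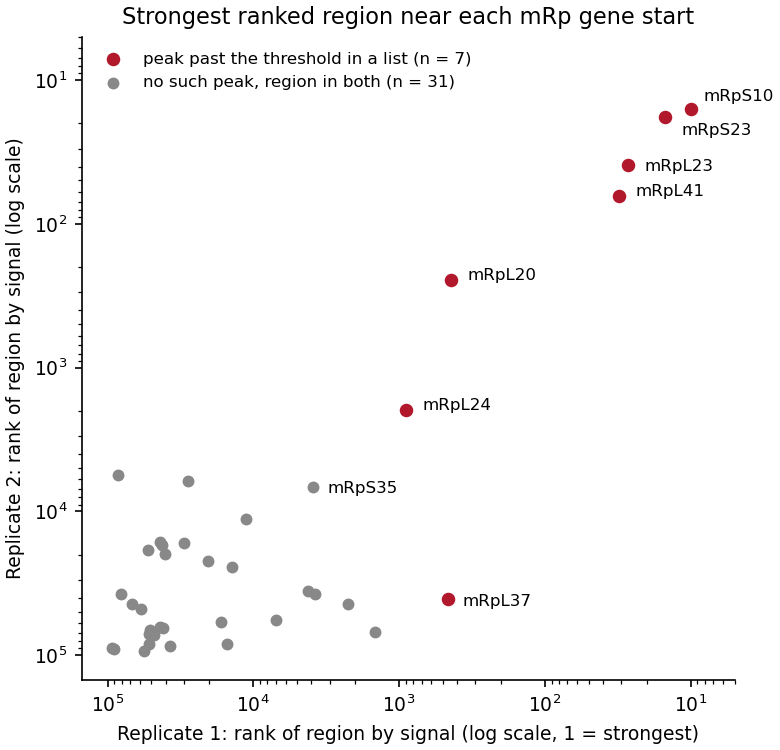
Rank by signal of the strongest region within 1000 bp of each mRp gene start, replicate 1 on the horizontal and replicate 2 on the vertical axis, both logarithmic with the strongest at the right and top. Red points are the 7 genes with a peak past a threshold, grey points the 31 other genes with a region in both replicates. mRpS10, mRpS23, mRpL23 and mRpL41 rank between 10 and 64 in both, and mRpL37 ranks 464 in replicate 1 and 41090 in replicate 2.

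Most members had weak regions or none. The ranked lists keep regions whether or not they pass a threshold. Of 73 members, 58 had at least 1 ranked region within 1000 bp in a replicate or in the ranked list of both. The share of all protein-coding genes over these lists together is not given here, so this count is not a result about members. A region of replicate 1 was found at 49 members, or 67.1%, beside 75.2% of all protein-coding genes, and a region of replicate 2 at 46, or 63.0%, beside 72.7%. By percentile of signal among all ranked regions, the strongest region of a member had a median of 65.6 in replicate 1 and 65.8 in replicate 2, against 74.5 and 74.7 over all genes with a region. Members have fewer annotated starts, a mean of 1.10 against 1.41, and so a smaller stretch searched. Over genes with 1 start the medians were 64.4 and 65.6 for 67 members, of which 44 and 41 had a region, against 71.8 and 72.9 for all genes.

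The 15 members with no region in any of these lists were mRpL3, mRpL4, mRpL10, mRpL13, mRpL17, mRpL34, mRpL40, mRpL53, mRpS5, mRpS6, mRpS7, mRpS11, mRpS18C, mRpS21 and mRpS30. Without the matching share of all genes, this number is not called high or low. The absence of a region says that none was listed at this depth, which is unknown, and not that Dan is absent there.

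Of the 66 members without a peak past a threshold, 5 had a region at or above the 95th percentile of replicate 1, or 7.58%, and 0 had one at that level in replicate 2. Over all 73 members, those with a peak included, 12 (16.4%) reached it in replicate 1 and 6 (8.22%) in replicate 2, against 12.5% and 11.2% of all protein-coding genes. In the ranked list of both replicates, mRpS35 came closest to the threshold. Its region lay 698 bp from the start with a signal of 59.98 in the ranked list of both replicates, at the 96.5th percentile in replicate 1 and the 93.9th in replicate 2. Its irreproducible discovery rate (IDR), which measures how well ranks agree between the replicates, was 0.0330, where the authors' lists end at 0.01. mRpL24, just inside, had 0.00430. In replicate 1's own ranked list mRpS2 came closer than mRpS35, with a −log10 IDR of 1.79 against 0.529.

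The other 4 of these genes stood high in replicate 1 alone. mRpS2 was at the 98.7th percentile there and the 38.0th in replicate 2, where its strongest region lay 664 bp away. mRpL46 was at 98.0 and 60.1, mRpL27 at 96.6 and 66.1, and mRpL35 at 96.2 and 68.0. The strongest regions of mRpL27 and mRpL35 also lay in different places in the replicates, 1943 bp and 1144 bp apart. Outside the distance of 1000 bp, conservative peaks lay 1844 bp from mRpS24, with a signal of 125, and 1952 bp from mRpL46, with 286. The other list of both replicates also had a peak 1487 bp from mRpL13, with 66.7. The farthest peak inside it was that of mRpS23 at 394 bp.

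GC content was low at the member summits. Within 100 bp of the summit it was 25.9% at mRpL41, 26.9% at mRpL24, 27.9% at mRpL20, 30.3% at mRpS10, 32.3% at mRpL37, 34.3% at mRpL23 and 36.8% at mRpS23. The median over the 6 conservative member peaks was 29.1%, against 34.8% over all 497 promoter peaks, whose quartiles were 31.3 and 39.3%. Promoter peaks between facing starts, as all 6 of these were, had a median of 32.8%, and the other promoter peaks 36.3%. The dip was centred on the summit, with a mean over the 7 of 25.2% within 60 bp and 41.7% from 200 to 300 bp away, against 33.5% and 44.7% in all promoter peaks. The longest run of A and T within 100 bp had 30 bases at mRpL20, 24 at mRpL24, 16 at mRpL23 and mRpL37, 14 at mRpL41, 12 at mRpS23 and 11 at mRpS10. Its median over all promoter peaks was 13, and 15 over those between facing starts.

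**Figure D3:**
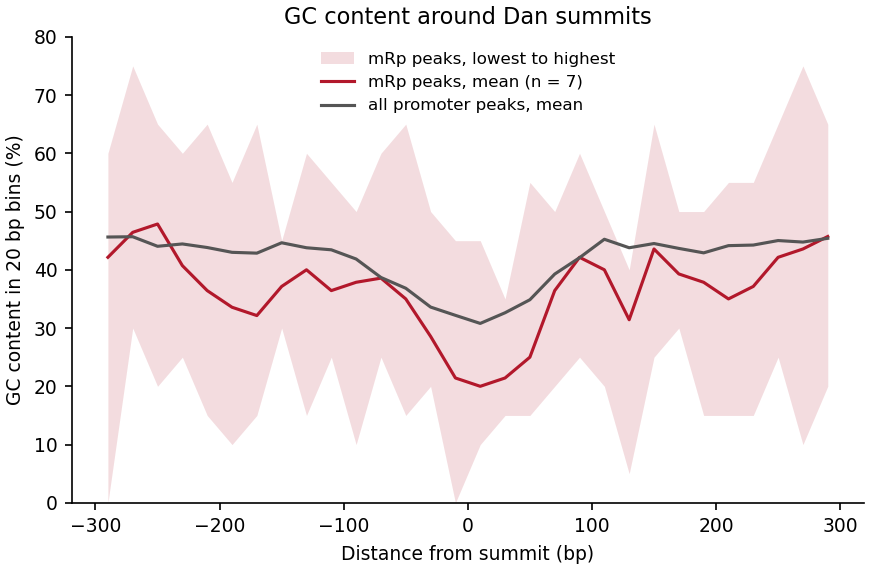
Mean GC content in 20 bp bins against distance from the summit, for the 7 mRp peaks (red, with the lowest and highest peak shaded) and all 497 conservative promoter peaks (grey). Both fall towards the summit, to a mean within 60 bp of 25.2% at mRp peaks and 33.5% at all promoter peaks.

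The promoter windows of all members were also measured. From 250 bp before to 50 bp after the most upstream start, the median GC content was 32.2% in the 7 members with a peak (range 29.2 to 44.5%). It was 35.5% in the 66 without (25.9 to 57.5%). Over all protein-coding genes it was 37.9%, and over the 707 with a conservative peak it was also 37.9%. The median over all genes with a divergent start is not given here. The string AAATTAA, on either strand, was noticed in the sequences around the summits and searched afterwards. It was found within 100 bp of 6 of the 7 summits, all but that of mRpL41, against 132 of 497 promoter peaks, or 26.6%. In the 289 promoter peaks whose GC content lay in the same range as that of the members, the share was 31.1%. Since the string was picked from these 7 sequences, its count in them is a description.

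The promoters of the gene family were searched for 12 further strings, on both strands. For 1 of them, CAGCTG, the share of genes with a divergent start lay outside the 95% interval of all 73 members. For the 58 members with a divergent start it lay outside for the initiator string TCAGT as well, given below. CAGCTG, a palindromic E-box that is a known core promoter element of Drosophila, was in 40 of 73 member promoters, or 54.8% (42.7 to 66.5%), against 22.01% of genes with a divergent start and 17.7% of all protein-coding genes. Over the 58 members with a divergent start the share was 53.4% (39.9 to 66.7%). In members the middle of the string lay at a median of 5 bp after the start, and 36 of 45 occurrences were within 50 bp of it, or 80%. Over all genes 51.3% were.

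CAGCTG was not what the member peaks had in common. It was in the promoters of 3 of 7 members with a peak, mRpL23, mRpL24 and mRpL41, and of 37 of the 66 without, or 56.1%. Within 100 bp of the summit it was found in 0 of the 7, against 6.24% of promoter peaks. Where present, it lay 118 to 143 bp from the summit. The occurrences at mRpL23 and mRpL24 are shown with the string in capitals, as 30 bases on the strand of the gene.
mRpL23, chr3L:2373715-2373744, minus strand, 25 bases before the start: gtggttgacaatCAGCTGtttaaaacaagt
mRpL24, chr2L:4945581-4945610, minus strand, 234 bases before the start: gtccacaaatagCAGCTGcttcttcttacc
mRpL24, chr2L:4945324-4945353, minus strand, 23 bases after the start: ttcagttctcaaCAGCTGattgcaagccgc

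The DRE, TATCGATA, which is bound by the factor DREF at housekeeping promoters, was in 15 of 73 member promoters, or 20.5% (11.98 to 31.6%), against 15.8% of genes with a divergent start and 9.36% of all genes. It was in 2 of 7 members with a peak and 13 of 66 without. Within 100 bp of the summit it was found in 0 of the 7, and in 1.41% of promoter peaks. Its core CGATA, which every DRE contains, was in 58.9%, 59.4% and 47.4% of the same 3 sets. The motif 1 core GGTCACAC was in 11.0% of members, 13.2% of genes with a divergent start and 7.70% of all genes, and in 0 of the 7 members with a peak.

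The remaining strings had shares in all 73 members whose 95% intervals contained the share of genes with a divergent start. These were the E-box CACGTG with 6.85%, the TATA string TATAAA with 46.6%, the initiator string TCAGT with 38.4%, GAGAGA with 6.85%, the Zelda string CAGGTA with 9.59%, the NRF-1 core GCATGC with 6.85%, the motif 6 core GTATTTTT with 12.3%, and CAGTG, which can overlap TCAGT, with 53.4%. Over all genes the shares were 4.23%, 45.9%, 51.6%, 12.3%, 6.25%, 4.83%, 7.41% and 46.2%. In the 58 members with a divergent start TCAGT had 32.8% (21.0 to 46.3%), against 46.5% of all genes with one, just outside the interval. Within 100 bp of the summit, CAGTG was found at 2 of the 7 member peaks, mRpS23 and mRpL20, or 28.6%, against 47.1% of promoter peaks. A match to a string shows letters in a window and not a bound factor.

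**Figure D4:**
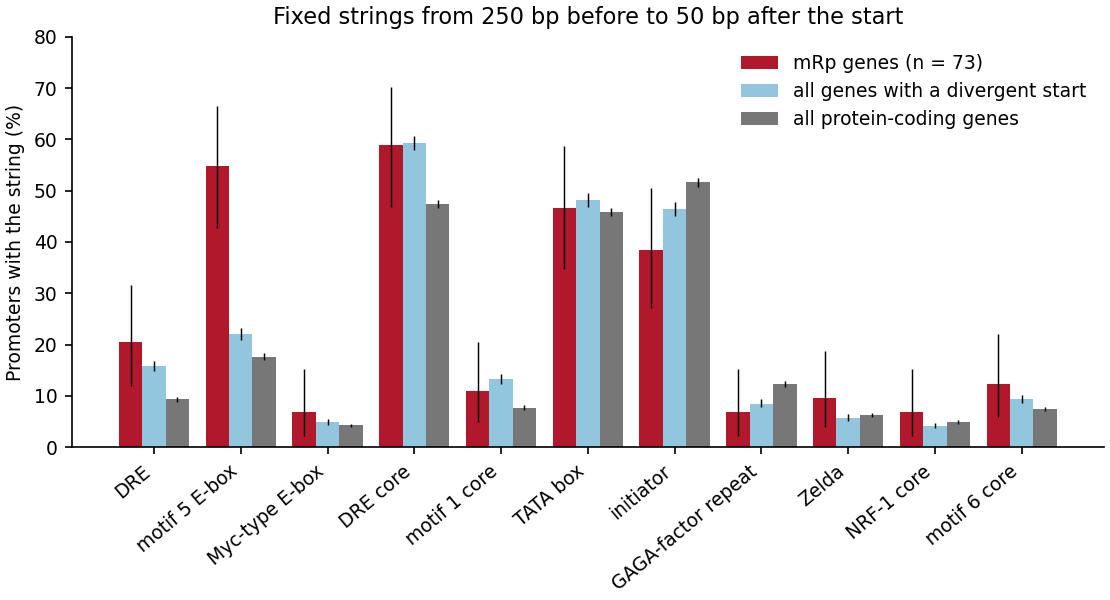
Share of promoters that hold each of the strings other than CAGTG and AAATTAA, from 250 bp before to 50 bp after the most upstream start, for the 73 mRp genes (red), all genes with a divergent start (blue) and all protein-coding genes (grey), with 95% exact binomial intervals as lines. The E-box of core promoter motif 5 is in 54.8% of mRp promoters, against 22.01% and 17.7%.

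Other genes for mitochondrial functions had peaks about as often as genes in general. Of 150 such genes in the lists used, 8 had a conservative peak within 1000 bp, or 5.33% (2.33 to 10.2%), beside 5.06% of all protein-coding genes. Of these genes 51.3% had a divergent start, fewer than the 79.5% of mitochondrial ribosomal protein genes. Respiratory chain genes had 5 of 93, or 5.38%, with signals of 168 at blw, which encodes the alpha subunit of ATP synthase, 140 at ND-ASHI and 137 at ND-MWFE, both complex I subunits, and 136 at levy, a subunit of complex IV. Genes for mitochondrial transcription, RNA and DNA had 2 of 15, PNPase, an exoribonuclease gene, with 468 at 71 bp and Lon, a protease gene, with 350 at 109 bp.

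Mitochondrial tRNA synthetases and translation factors had 1 of 24, LeuRS-m with 178 at 884 bp. Import genes had 0 of 16, which allows a share of up to 18.8% by the same limit (exact upper bound 20.6%), and neither tko nor bonsai, which encode small subunit proteins of the mitochondrial ribosome under other symbols, had a peak. Cytoplasmic ribosomal protein genes had 5 of 93, or 5.38%, led by RpL32 with 185 at 190 bp, RpL34b with 145, RpS28b with 121 and RpS10a with 75.04. All 8 of the other mitochondrial genes with a peak had a divergent start, beside 460 of the 707 protein-coding genes with a conservative peak, or 65.1%.

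**Figure D5:**
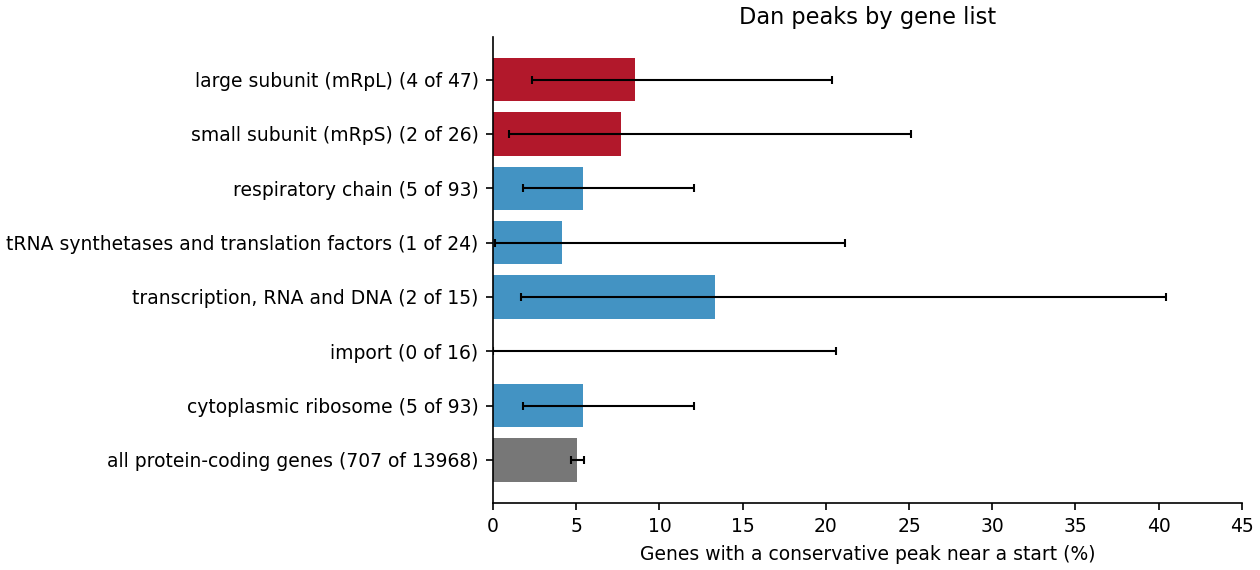
Percent of genes with a conservative Dan peak within 1000 bp of a start, for the mRp genes of both subunits (red), other mitochondrial and cytoplasmic ribosomal lists (blue) and all protein-coding genes (grey), with 95% exact binomial intervals. Counts stand beside each name. Large subunit genes had 8.51% and small subunit genes 7.69%, against 5.06% of all genes.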

How the data were processed

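The data are peak lists from 2 ChIP-seq libraries of 0 to 8 h embryos, with chromatin sheared to 200 to 800 bp per the labels. The authors deposited ranked and thresholded lists on dm6, per the notes filed with the samples, with a signal, a score (a scaled logarithm of the IDR) and a −log10 q for each region. In the ranked lists the authors also gave −log10 of the IDR, a score at most 5. The lists were made from filtered alignments and a further file of unstated content. Which aligner and peak caller were run is not given in the sources used here. The depth of each library is unknown. The 2 further unnamed signal columns of each ranked list, 8 in all, were not used.

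Genes came from Ensembl release 115 (BDGP6.54) and bases from the matching RefSeq Release 6 assembly, which is dm6. A gene counted as having a peak when a summit lay within 1000 bp of any of its starts. A region past a threshold has an IDR of at most 0.01, the level at which the lists end. The ranked list that holds the conservative peaks served for IDR values.

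The members, lists and strings were chosen with earlier results of these data known. The rule for named genes was every member with a thresholded peak, its partner, members at or above the 95th percentile of a replicate, and up to 4 genes of each other list. The peaks beyond 1000 bp (mRpL13, mRpL46, mRpS24) and the 15 genes with no region were named after their values were seen. Of the written list entries 3 matched no symbol, and 4 symbols caught by a prefix but of other function (Tom, Tomosyn, Timp, Sdhaf3) were left out. One gene and the results that need it are not reported here. No test was run, since there is 1 group of 2 libraries. Distances and pairing of starts were tested on simulated positions. Computation was in Python 3.11.15 with pandas 2.3.3 and numpy 2.4.6. Intervals came from scipy 1.17.1 and plots from matplotlib 3.10.9.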

Additional observations from a re-analysis of the deposited data

How the results depend on the processing

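The counts of members with a peak stayed within 1.5 times of their values with starts searched to 500 or 2000 bp. The same held with any base of a region counted, with the most upstream start alone, and at an IDR of at most 0.001 or 0.05. Leaving out a replicate meant taking the other replicate's own list. Its counts are therefore those given above and no separate check: 7 members in replicate 1, beside 4.95% of all genes, and 5 in replicate 2, beside 3.1%. The search to 2000 bp gave 8 in the conservative list, 10 in the other list, 9 in replicate 1 and 7 in replicate 2. A wider search can only raise such counts, for any gene. The share of all protein-coding genes at 2000 bp is not given here, so the rise is not a result about members. The median signal at member peaks was likewise that of the single lists, 260 in replicate 1 and 190 in replicate 2, against 439. The exception was assignment to the nearest start, an alternative added after the data were seen: only 3 of the 6 conservative member peaks, those at mRpS10, mRpL23 and mRpL41, then belonged to a member, the other 3 lying nearer to CenG1A, Icmt and betaggt-I. At an IDR of at most 0.001, 5 members remained, beside 2.32% of all genes, and at 0.05 there were 7, beside 7.72%. The share of member peaks between facing starts fell from 100% to 85.7% at an IDR of 0.05. With starts at most 500 bp apart it was 83.3%. The shares of all promoter peaks at these settings are not given here. With 50 bp either side of the summit the median GC content was 23.3%, against 29.1% with 100 bp. With members without a region set to the lowest percentile, the median in replicate 2 was 35.5, against 65.8 over members with a region. The shares of 3 strings in member promoters moved out of their intervals in a window of 100 bp either side of the start, TATAAA to 27.4%, GTATTTTT to 5.48% and AAATTAA to 16.4%, and that of CAGCTG did not. Over all protein-coding genes these 3 fell as well, from 45.9% to 29.2%, from 7.41% to 5.17% and from 23.2% to 12.9%. The unknown depth limits what can be said of members without a region, and 2 libraries give no spread to test against.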
